A study of Homo sapiens with 9 samples.

Results

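The genes described here are 40 genes of the unfolded protein response and the integrated stress response, taken by symbol from the 60719 Ensembl genes in the deposited table. The list was chosen with earlier results of these data known. Each of the 40 symbols matched 1 row. They were divided by role into 5 stress sensors and transcription factors, 18 genes of the ATF4 arm and 17 genes of endoplasmic reticulum (ER) folding and quality control that XBP1 and ATF6 are known to induce. The recipient cells were MDA-MB-231, an established human breast carcinoma line of wild-type genotype, kept for 72 h in 5% vesicle-depleted medium in all groups. The TIS sEV group received small extracellular vesicles from MDA-MB-231 donors made senescent with 100 ng/ml nocodazole, a microtubule poison, given for 72 h and followed by 72 h of release. The Cont sEV group received vesicles from donors given DMSO in the same schedule, and the No sEV group received none. Each group has 3 libraries of total RNA. Senescence of the donors and any further action of nocodazole on them cannot be told apart, and all cells are of 1 line.

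Levels are TPM, the number of transcripts of a gene per 1000000 transcripts after scaling for length, so genes can be compared with each other within a library. Every library sums to 1000000 TPM and its read depth is unknown. The carcinoma keratins KRT8 (317 to 348 TPM) and KRT18 (406 to 431 TPM) and the mesenchymal gene VIM (2206 to 2299 TPM) were high in all 9 libraries. CDH1, the epithelial cadherin gene, did not exceed 0.577 TPM, and the oestrogen receptor gene ESR1 did not exceed 0.22 TPM. The progesterone receptor gene PGR did not exceed 0.0502 TPM. Other epithelial and receptor markers were not that low. EPCAM was at 21.1 to 25.9 TPM, ERBB2 at 26.2 to 30.7 TPM and GATA3 at 2.63 to 4.54 TPM. The summed level of 12 markers of leukocytes, endothelium and fibroblasts was 11.99 to 13.9 TPM with TIS sEV, 11.2 to 12.1 TPM with Cont sEV and 11.5 to 13.9 TPM with No sEV, most of it COL1A1. Its part in the results was not tested. No label states that the replicates came from different cultures, so p-values measure the spread between these libraries, which may be technical.

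Both stress responses are signalling routes that adjust protein synthesis to the capacity of the cell. In the unfolded protein response, the ER membrane sensors PERK (gene EIF2AK3), IRE1 (ERN1) and ATF6 respond to misfolded protein: IRE1 splices the XBP1 mRNA into one that encodes an active factor, and ATF6 is cut to release a factor that acts with XBP1 on chaperone genes. PERK and related kinases phosphorylate the translation factor eIF2, which lowers general translation and raises translation of ATF4, the inducer of amino acid synthesis, transport and feedback genes. Gene-level TPM measures neither XBP1 splicing, ATF6 cleavage, eIF2 phosphorylation nor ATF4 protein.

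The 40 genes held nearly level transcript abundances across the 3 groups. Genes were tested where 3 or more libraries reached 1 TPM, which all 40 did with room to spare: their means over the 9 libraries ran from 11.8 TPM for VLDLR to 2364 TPM for HSP90B1, with a median of 124 TPM against 17.3 TPM over the 13879 genes tested. Of the 40, 22 lay in the top 10% of tested genes by level. The coefficient of variation over the 9 libraries was 1.02% for PDIA6 at the lowest, 3.20% in the median gene and 11.6% for EIF2AK3 at the highest. It was under 5% for 34 of the 40 genes. Among the 8761 tested genes that averaged 10 TPM or more, 50.5% were under 5% and the median was 4.97%. Those genes were not matched to the 40 by level. The highest library exceeded the lowest by 1.04-fold for PDIA6 and by 1.53-fold for EIF2AK3.

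**Figure D1:**
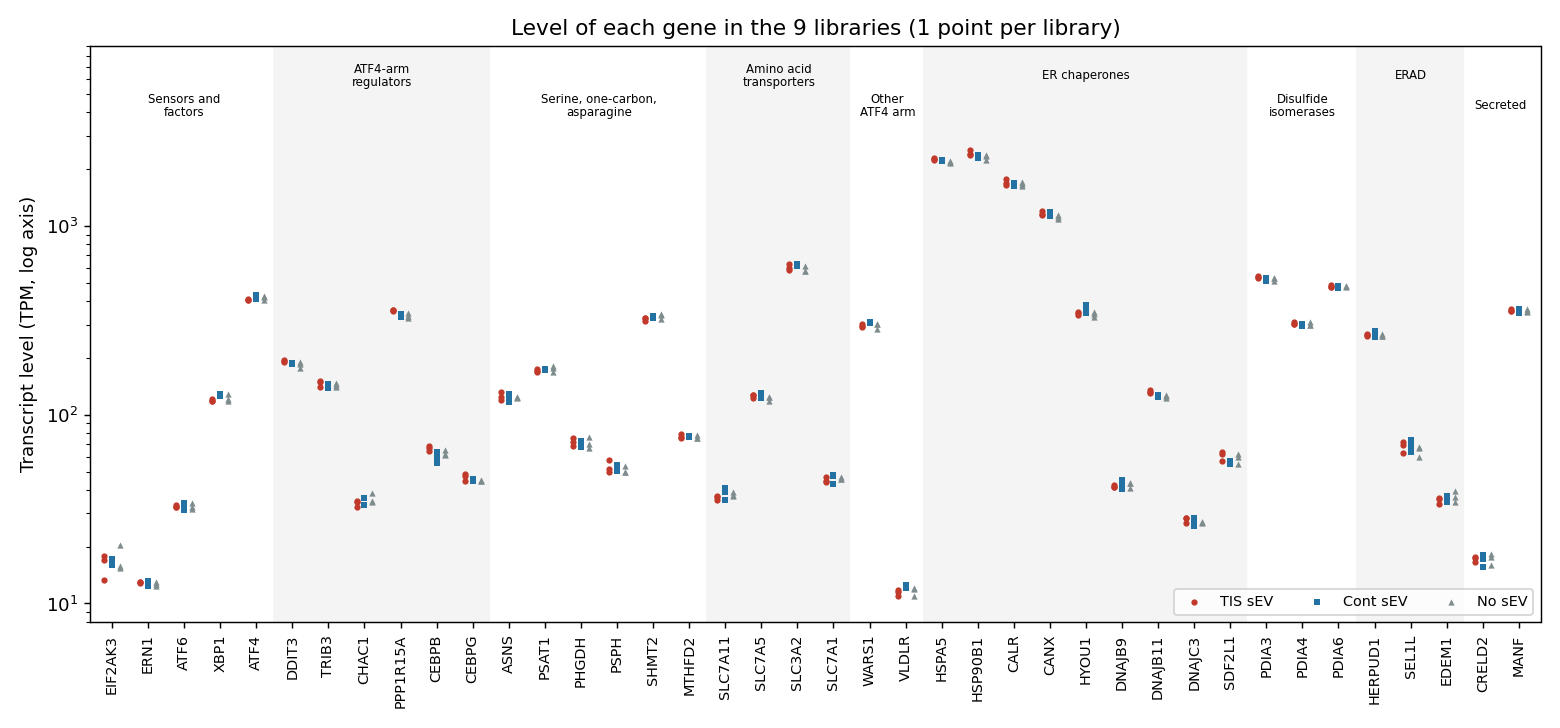
TPM on a log axis for each of the 40 genes, ordered by role, with 1 point per library (TIS sEV circles, Cont sEV squares, No sEV triangles; 3 libraries each). Levels differ between genes from 11.8 to 2364 TPM, while the 9 points of a gene lie within 1.53-fold of each other.

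In limma's moderated test on log2(TPM + 1) with Benjamini-Hochberg adjustment over all 13879 genes tested, 0 of the 40 genes passed an adjusted p of 0.05 in any of the 3 comparisons. For TIS sEV over Cont sEV the share of all tested genes that passed was 0.0937%, for TIS sEV over No sEV it was 0.00721%, and for Cont sEV over No sEV it was 0%. At an unadjusted p under 0.05, 5 of the 40 (12.5%) were counted in TIS sEV over Cont sEV, where 10% of all tested genes were. In TIS sEV over No sEV 3 of the 40 (7.5%) were counted, against 7.97% of all tested genes, and in Cont sEV over No sEV 0 of the 40 were, against 6.03%. These shares lie near those of all genes. The 3 comparisons share libraries in pairs, so their values are set side by side and not counted as repeats of each other.

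The intervals of the fold changes were narrow. In TIS sEV over Cont sEV the 95% confidence interval of each of the 40 genes lay within 1.25-fold in either direction, a limit chosen after the values were seen, and the widest bound was 1.24-fold, for EIF2AK3. The same held for all 40 in Cont sEV over No sEV (widest bound 1.24-fold) and for 39 of 40 in TIS sEV over No sEV, where the interval of EIF2AK3 reached 1.284-fold. Among the 8761 genes that averaged 10 TPM or more, 89.9% had such an interval in TIS sEV over Cont sEV, 90.5% in TIS sEV over No sEV and 91.3% in Cont sEV over No sEV. The median interval of the 40 genes extended 0.08 to each side on the log2 scale.

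**Figure D2:**
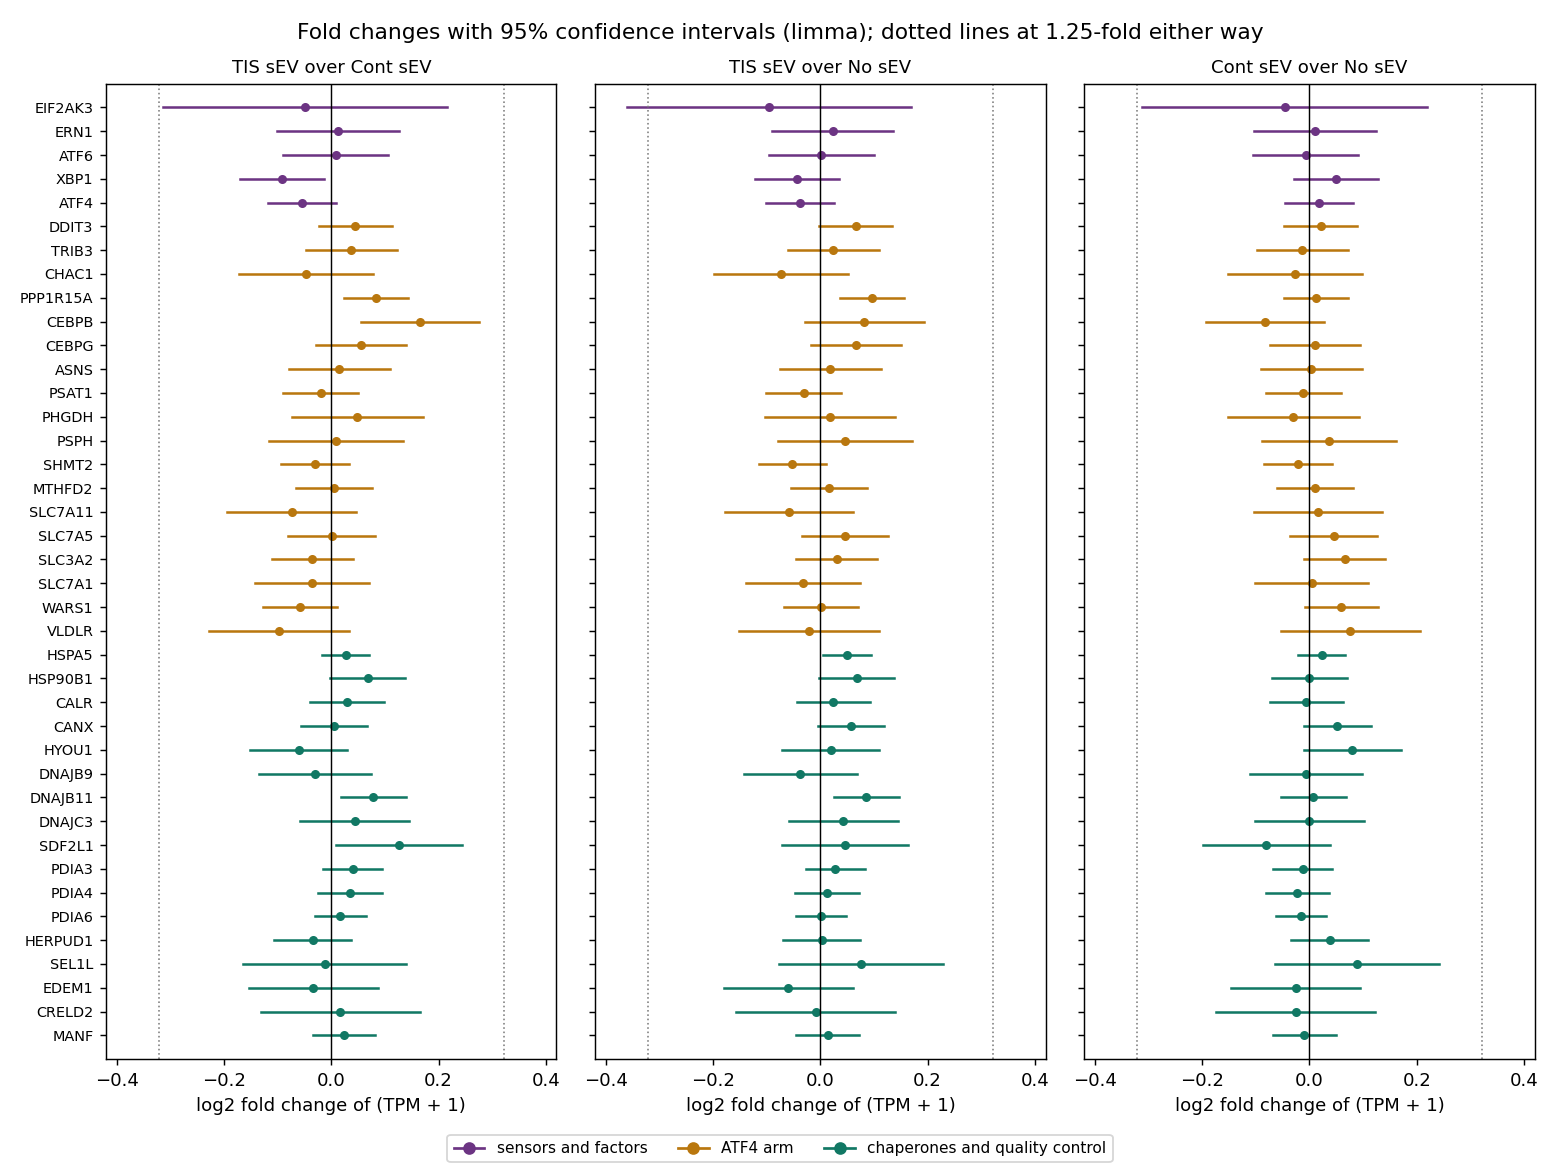
Log2 fold changes of (TPM + 1) for the 40 genes in 3 comparisons, with 95% confidence intervals from limma (9 libraries in 1 fit); colours mark sensors and factors, the ATF4 arm, and chaperones with quality control, and dotted lines mark 1.25-fold. Nearly all intervals cross 0, and the EIF2AK3 interval in TIS sEV over No sEV is the one that crosses a dotted line.

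Of the sensors, EIF2AK3, which encodes PERK, had the widest scatter between replicates. Its level was 17.8, 17.1 and 13.4 TPM in the TIS sEV libraries, 16.4, 16.1 and 17.1 TPM in the Cont sEV libraries, and 15.4, 15.9 and 20.5 TPM in the No sEV libraries. The lowest value was TIS sEV replicate 3 and the highest No sEV replicate 3, and all 3 groups overlapped. The log2 fold change was -0.05 (SE 0.12, adjusted p = 0.928, limma) for TIS sEV over Cont sEV and -0.10 (SE 0.12, adjusted p = 0.867, limma) for TIS sEV over No sEV. ERN1, which encodes the kinase and RNase IRE1, was at 12.3 to 13.2 TPM in the 9 libraries, and ATF6, which encodes the membrane-bound precursor of the ATF6 factor, at 31.3 to 34.1 TPM. For both genes the groups overlapped in every comparison.

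XBP1, the mRNA that IRE1 splices, was at 118, 118 and 121 TPM with TIS sEV, at 126, 128 and 128 TPM with Cont sEV, and at 118, 129 and 122 TPM with No sEV. The TIS sEV libraries lay below the Cont sEV libraries, and both overlapped with the No sEV libraries. The log2 fold change for TIS sEV over Cont sEV was -0.09 (SE 0.04, unadjusted p = 0.0254, adjusted p = 0.419, limma), and it was -0.04 for TIS sEV over No sEV (adjusted p = 0.786, limma). XBP1 (ENSG00000100219.16) lies on chromosome 22 from 28794555 to 28800597 on GRCh38, on the minus strand.

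ATF4, the central factor of the integrated stress response, was at 404, 408 and 408 TPM with TIS sEV, at 429, 409 and 431 TPM with Cont sEV, and at 428, 406 and 418 TPM with No sEV. Every TIS sEV value was below every Cont sEV value, though TIS sEV replicates 2 and 3 lay close to Cont sEV replicate 2. The log2 fold change was -0.06 for TIS sEV over Cont sEV (SE 0.03, adjusted p = 0.571, limma) and -0.04 for TIS sEV over No sEV (SE 0.03, adjusted p = 0.762, limma). ATF4 (ENSG00000128272.15) lies on chromosome 22 from 39519695 to 39522685 on the plus strand.

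Among the feedback and partner genes of the ATF4 arm, CEBPB and PPP1R15A had the lowest unadjusted p-values of all 40 genes for TIS sEV over Cont sEV. The unadjusted p-values (limma) of CEBPG, DDIT3, TRIB3 and CHAC1 in that comparison ran from 0.173 to 0.424. PPP1R15A, which encodes GADD34, the regulatory subunit that directs a phosphatase to eIF2, was at 354, 358 and 360.0 TPM with TIS sEV, at 342, 331 and 338 TPM with Cont sEV, and at 332, 326 and 345 TPM with No sEV. Its 3 TIS sEV libraries were above the other 6. The log2 fold change was 0.08 over Cont sEV (SE 0.03, unadjusted p = 0.0111, adjusted p = 0.340, limma) and 0.10 over No sEV (SE 0.03, unadjusted p = 0.00509, adjusted p = 0.488, limma), which did not pass. PPP1R15A (ENSG00000087074.8) lies on chromosome 19 from 48872392 to 48876057.

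CEBPB, which encodes a bZIP factor that pairs with ATF4, was at 64.2, 66.5 and 68.5 TPM with TIS sEV, at 63.2, 58.7 and 55.6 TPM with Cont sEV, and at 62.2, 65.0 and 60.9 TPM with No sEV. The TIS sEV and Cont sEV libraries did not overlap, while No sEV overlapped with both. Its log2 fold change of 0.17 for TIS sEV over Cont sEV was the highest of the 40 (SE 0.05, 95% interval 0.05 to 0.28, unadjusted p = 0.00756, adjusted p = 0.294, limma), and for Cont sEV over No sEV the value was -0.08 (adjusted p = 0.866, limma). CEBPB (ENSG00000172216.6) lies on chromosome 20 from 50190734 to 50192689. CEBPG, a related partner of ATF4, was at 44.4 to 48.5 TPM, with overlapping groups.

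DDIT3 encodes CHOP, a bZIP factor that follows ATF4 in lasting stress. Its level was 190.3, 194 and 193 TPM with TIS sEV, 189, 186 and 186 TPM with Cont sEV, and 191, 177 and 185 TPM with No sEV. The TIS sEV libraries lay above Cont sEV and overlapped No sEV, with a log2 fold change of 0.04 over Cont sEV (SE 0.03, adjusted p = 0.680, limma) and 0.07 over No sEV (SE 0.03, adjusted p = 0.636, limma). Exons of MARS1, a gene on the opposite strand, overlap those of DDIT3 in GENCODE 29, and since no source used here states whether the libraries keep strand, the level of DDIT3 carries that uncertainty. TRIB3, a pseudokinase gene that CHOP induces, was at 138 to 151 TPM, and CHAC1, which encodes a glutathione-degrading enzyme, at 32.6 to 38.7 TPM. Both had overlapping groups throughout, and CHAC1 was highest in No sEV replicate 1.

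For each of the 6 enzymes of serine, glycine, folate and asparagine metabolism the groups overlapped in all 3 comparisons. ASNS, asparagine synthetase, averaged 125 ± 5.85 TPM with TIS sEV, 124 ± 5.82 TPM with Cont sEV and 123 ± 1.20 TPM with No sEV (SD, n = 3 each). PHGDH, PSAT1 and PSPH, which catalyse the successive steps of serine synthesis, averaged 71.9 ± 3.49, 172 ± 2.77 and 52.8 ± 3.98 TPM with TIS sEV, against 69.5 ± 2.597, 174 ± 1.65 and 52.4 ± 1.83 TPM with Cont sEV and 71.0 ± 4.88, 176 ± 6.59 and 51.0 ± 2.21 TPM with No sEV. SHMT2 and MTHFD2, the mitochondrial folate enzymes, had TIS sEV over Cont sEV log2 fold changes of -0.03 and 0.01. The summed level of the 6 was 820.2 ± 3.75 TPM with TIS sEV, 825 ± 5.46 TPM with Cont sEV and 831 ± 5.28 TPM with No sEV. The TIS sEV sums (824.4, 817 and 819 TPM) lay below the No sEV sums (834.6, 824.8 and 833 TPM) and overlapped the Cont sEV sums (823, 831 and 821 TPM), and no test was run on them.

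Among the transporters, SLC3A2, the heavy chain that carries SLC7A5 and SLC7A11 to the cell surface, was the most abundant. It averaged 604 ± 23.2 TPM with TIS sEV, 619 ± 12.1 TPM with Cont sEV and 591 ± 19.2 TPM with No sEV (SD, n = 3 each). SLC7A11, the cystine importer, averaged 36.3 ± 0.904 TPM with TIS sEV, 38.4 ± 2.82 TPM with Cont sEV and 37.9 ± 1.13 TPM with No sEV. SLC7A5, which carries large neutral amino acids, was at 118 to 131 TPM and SLC7A1, which carries cationic ones, at 43.0 to 48.0 TPM. The groups of all 4 transporters overlapped in the 3 comparisons.

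WARS1 and VLDLR were the 2 members of the ATF4 arm whose Cont sEV libraries stood above those of both other groups. WARS1, the tryptophanyl-tRNA synthetase gene, was at 294, 292 and 304 TPM with TIS sEV, at 309, 307 and 311 TPM with Cont sEV, and at 304, 284 and 302 TPM with No sEV. VLDLR, a lipoprotein receptor gene, averaged 11.4 ± 0.417 TPM with TIS sEV, 12.3 ± 0.247 TPM with Cont sEV and 11.6 ± 0.635 TPM with No sEV. For TIS sEV over Cont sEV the log2 fold changes were -0.06 for WARS1 (adjusted p = 0.578, limma) and -0.10 for VLDLR (adjusted p = 0.630, limma), and neither passed. WARS1 is also an interferon-inducible gene.

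**Figure D3:**
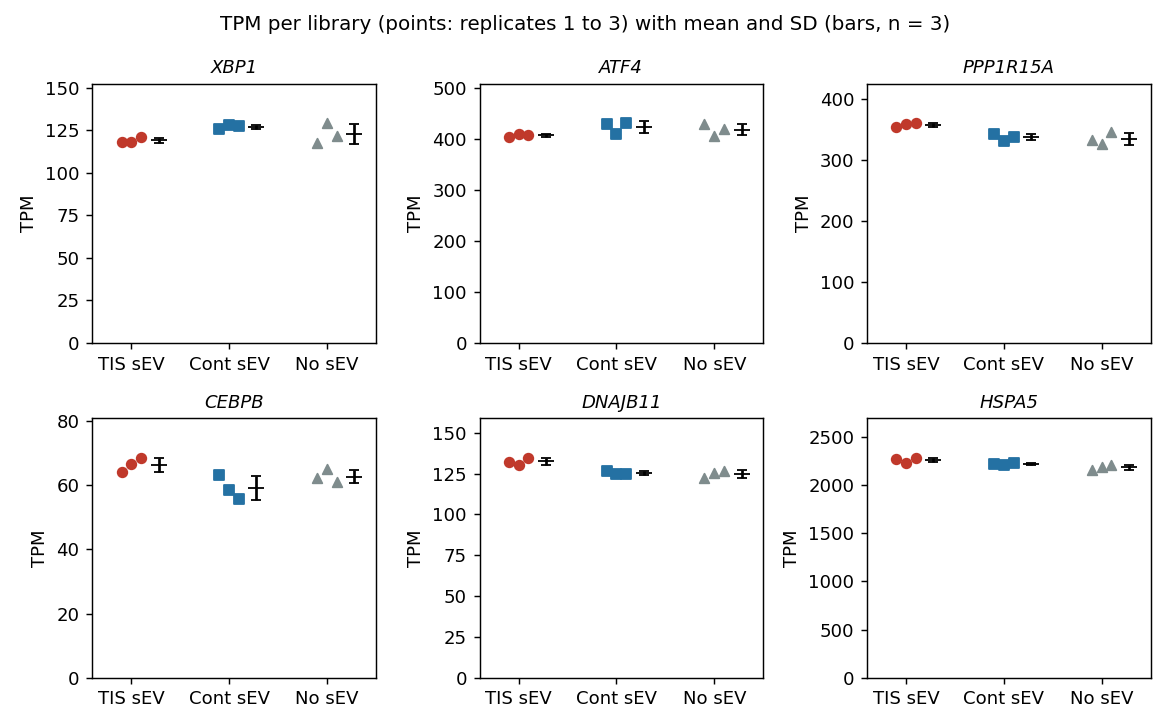
TPM in each library for XBP1, ATF4, PPP1R15A, CEBPB, DNAJB11 and HSPA5, on axes that start at 0; points are replicates 1 to 3 of TIS sEV, Cont sEV and No sEV, and bars give the mean and SD (n = 3). For PPP1R15A, DNAJB11 and HSPA5 the 3 TIS sEV points are above the other 6, by differences that are small against the level.

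The ER chaperones were among the most abundant mRNAs in these cells. HSP90B1 (GRP94) and HSPA5 (BiP), the ER members of the HSP90 and HSP70 families, ranked 53 and 62 by mean level among the 13879 genes tested, and the lectin chaperones CALR and CANX ranked 93 and 142. HSPA5, whose product also holds the 3 sensors inactive, was at 2269, 2237 and 2285 TPM with TIS sEV, at 2225, 2207 and 2234 TPM with Cont sEV, and at 2157, 2190.5 and 2214 TPM with No sEV. Its TIS sEV libraries lay above the other 6, with replicate 2 close to Cont sEV replicate 3. The log2 fold change was 0.03 over Cont sEV (SE 0.02, adjusted p = 0.709, limma) and 0.05 over No sEV (SE 0.02, unadjusted p = 0.0323, adjusted p = 0.589, limma), with an upper 95% bound of 0.09. HSPA5 (ENSG00000044574.8) lies on chromosome 9 from 125234853 to 125241330.

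HSP90B1 was at 2379.9, 2521 and 2414 TPM with TIS sEV, at 2388, 2289 and 2301 TPM with Cont sEV, and at 2245, 2344 and 2392 TPM with No sEV. TIS sEV replicate 1 lay inside the range of both other groups, and the log2 fold change was 0.07 over each of them (SE 0.03, adjusted p = 0.519 over Cont sEV and 0.634 over No sEV, limma). CALR averaged 1702 ± 58.8 TPM with TIS sEV, 1666 ± 28.9 TPM with Cont sEV and 1673 ± 48.0 TPM with No sEV, and CANX averaged 1162 ± 30.7, 1159 ± 27.3 and 1117 ± 21.3 TPM in the same groups. HYOU1, a large HSP70-like chaperone gene, was highest in Cont sEV replicate 3, at 384 TPM, with overlapping groups.

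DNAJB11 encodes ERdj3, a cochaperone of BiP. It was at 132, 130.5 and 135 TPM with TIS sEV, at 127, 125 and 125 TPM with Cont sEV, and at 122, 125 and 127 TPM with No sEV. The 3 TIS sEV libraries were above the other 6, with log2 fold changes of 0.08 over Cont sEV (SE 0.03, unadjusted p = 0.0167, adjusted p = 0.377, limma) and 0.09 over No sEV (SE 0.03, unadjusted p = 0.0105, adjusted p = 0.526, limma). DNAJB11 (ENSG00000090520.11) lies on chromosome 3 from 186567403 to 186585800, and a further annotated coding gene on its strand shares exons with it at a mean of 34.1 TPM, so reads may be split between the 2 entries. Together with PPP1R15A and HSPA5 it made 3 of the 40 genes whose TIS sEV libraries lay above all others, a pattern found for 4.14% of all tested genes. For 0 of the 40 did they lie below all others, which 0.951% of all tested genes did.

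SDF2L1, which encodes an ER protein that works with ERdj3 and BiP, was at 61.7, 57.2 and 63.3 TPM with TIS sEV, at 54.8, 56.8 and 54.9 TPM with Cont sEV, and at 59.6, 62.1 and 54.7 TPM with No sEV. TIS sEV lay above Cont sEV and overlapped No sEV, with a log2 fold change of 0.13 over Cont sEV (SE 0.05, unadjusted p = 0.0384, adjusted p = 0.466, limma). DNAJB9 and DNAJC3, which encode further J-domain cochaperones, were at 40.2 to 45.2 TPM and 25.7 to 28.4 TPM with overlapping groups. Exons of PNPLA8 and THAP5 on the opposite strand, at means of 28.8 and 28.9 TPM, overlap those of DNAJB9, so its level carries the same uncertainty as that of DDIT3.

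The disulfide isomerase genes varied little. PDIA6 stayed between 469 and 486 TPM, PDIA4 between 294 and 312 TPM, and PDIA3, which acts with CALR and CANX on glycoproteins, between 509 and 542 TPM. The 3 PDIA3 values with TIS sEV (535, 542 and 529 TPM) were above those with Cont sEV (527, 525 and 509 TPM) and overlapped those with No sEV (513, 529 and 532 TPM), and its log2 fold change over Cont sEV was 0.04 (adjusted p = 0.635, limma). Of the genes for ER-associated degradation, the membrane protein gene HERPUD1 was at 257 to 278 TPM, SEL1L, the partner of the ubiquitin ligase HRD1, at 59.5 to 73.7 TPM, and EDEM1, which recognises glycans of misfolded proteins, at 33.8 to 39.3 TPM. The stress-secreted proteins MANF and CRELD2 had transcripts at 345 to 365 TPM and 15.6 to 18.2 TPM, and ALG12, at a mean of 10.3 TPM on the opposite strand, overlaps exons of CRELD2. The groups of these 5 genes overlapped in all 3 comparisons.

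Of the 40 genes, 11 (27.5%) had TIS sEV and Cont sEV libraries that did not overlap, 7 higher and 4 lower with TIS sEV, where 15.4% of all tested genes were apart, 10.9% higher and 4.47% lower. The 7 were DDIT3, PPP1R15A, CEBPB, HSPA5, DNAJB11, SDF2L1 and PDIA3, and the 4 were XBP1, ATF4, WARS1 and VLDLR. Between TIS sEV and No sEV 4 of 40 were apart, all higher, against 14.1% of all tested genes (11.3% higher): PPP1R15A, HSPA5, CANX and DNAJB11. For CANX the lowest TIS sEV library, at 1138.22 TPM, barely exceeded the highest No sEV library, at 1138.15 TPM. Between Cont sEV and No sEV 2 were apart, both higher, WARS1 and VLDLR, against 11.2% (6.72% higher). None of these genes passed, and the smallest adjusted p among the 40 was 0.294 for TIS sEV over Cont sEV, 0.488 for TIS sEV over No sEV and 0.825 for Cont sEV over No sEV (limma).

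The ATF4 arm and the chaperone arm were then set side by side. In TIS sEV over Cont sEV the log2 fold change was above 0 for 10 of 18 ATF4-arm genes, whose median was 0.003. It was above 0 for 12 of 17 chaperone and quality control genes, whose median was 0.02, and for 59.6% of all tested genes, whose median was also 0.02. In TIS sEV over No sEV it was above 0 for 12 of 18, 14 of 17 and 66.7% of all tested genes, and in Cont sEV over No sEV for 12 of 18, 6 of 17 and 56.5%. The medians for TIS sEV over No sEV were 0.02 for both arms and 0.03 over all genes. In Cont sEV over No sEV they were 0.01 for the ATF4 arm, -0.006 for the chaperone arm and 0.01 over all genes. After median-of-ratios rescaling the TIS sEV over Cont sEV medians were -0.02 for the ATF4 arm and 0.002 for the chaperone arm, and the TIS sEV over No sEV medians were -0.02 and -0.01.

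**Figure D4:**
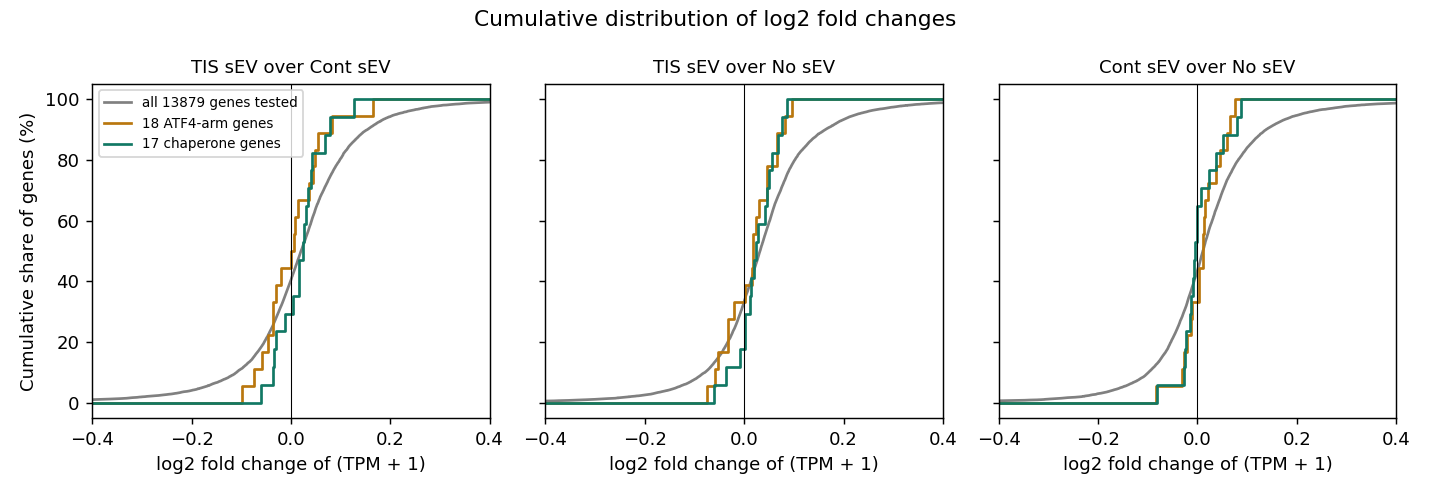
Cumulative share of genes against log2 fold change of (TPM + 1) for the 18 ATF4-arm genes, the 17 chaperone and quality control genes and all 13879 genes tested, in 3 comparisons. The curves of both arms are steeper than that of all genes, most of which are at lower levels, and cross 50% close to it.

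Per library, the mean deviation of an arm's genes from their 9-library mean was used as its score, on the log2(TPM + 1) scale. The chaperone score was 0.0184, 0.0041 and 0.022 in the TIS sEV libraries, 0.005, -0.0294 and 0.0095 in the Cont sEV libraries, and -0.0275, -0.0084 and 0.0064 in the No sEV libraries. TIS sEV replicate 2 lay below the highest library of each other group. The ATF4-arm score was 0.0019, 0.0014 and 0.0136 with TIS sEV, 0.0118, -0.0167 and 0.0109 in Cont sEV libraries, and 0.0048, -0.0273 and -0.0004 in No sEV libraries. Cont sEV replicate 2 was the lowest Cont sEV library in both arms. Summed over genes, the chaperone arm made up 1.02 ± 0.0092% of all TPM in TIS sEV libraries, 1.0023 ± 0.0095% in Cont sEV libraries and 0.994 ± 0.018% in No sEV libraries, and the ATF4 arm 0.278 ± 0.0038%, 0.278 ± 0.0026% and 0.274 ± 0.0045% (SD, n = 3 each). The chaperone shares of the TIS sEV libraries were 1.0165, 1.0207 and 1.0342%. They lay above those of all Cont sEV and No sEV libraries, the highest of which was 1.0141% (No sEV replicate 3). Such a share is weighted towards the most abundant genes: the 9 ER chaperones alone averaged 0.817% of all TPM with TIS sEV. In the chaperone score, which weights the 17 genes equally, the groups overlapped. The median log2 fold change over all tested genes was also above 0, at 0.0203 over Cont sEV and 0.032 over No sEV. The shares were not computed after rescaling. The ATF4-arm shares of the groups overlapped. No test was run on these scores or shares.

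**Figure D5:**
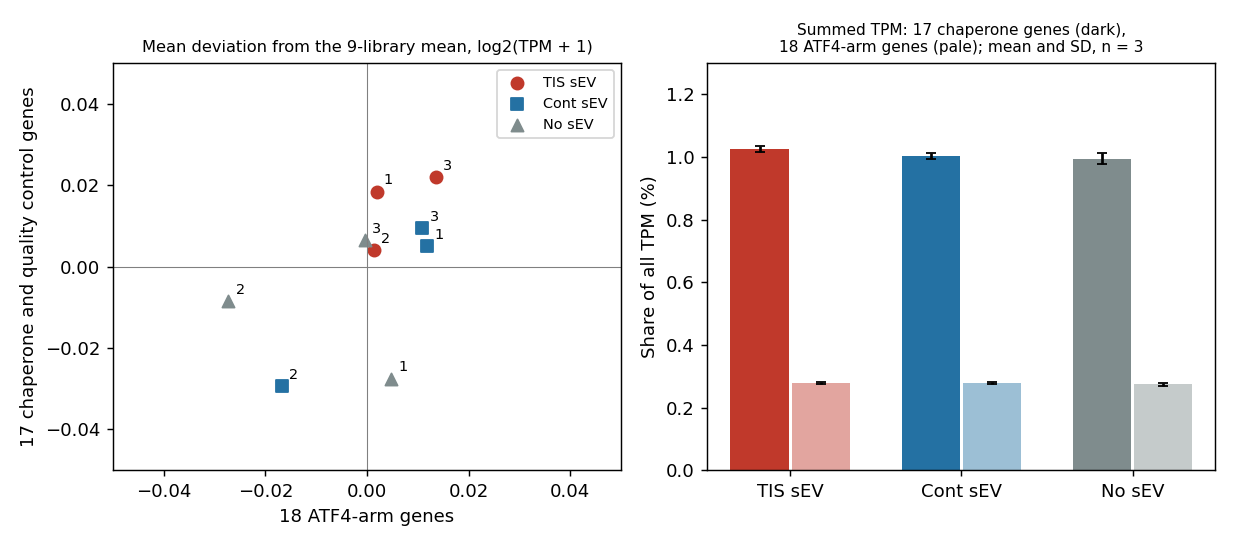
Left, score of the ATF4 arm against that of the chaperone arm in each library (numbers are replicates); right, share of all TPM held by each arm as mean and SD (n = 3) in TIS sEV, Cont sEV and No sEV. Horizontal and vertical scores of the 9 libraries stay between -0.0294 and 0.022, and the groups overlap on both axes of the left panel.

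Promoter sequence was searched in both arms. The arms are lists of genes known to respond to XBP1 and ATF6 or to ATF4. The motif counts therefore describe these lists and are not independent of how the genes were chosen. RefSeq promoters (GRCh38.p14, 250 bases before to 50 after the start) were matched by symbol for 36 of the 40 genes and for 10298 of the tested genes. The ER stress response element, searched on both strands as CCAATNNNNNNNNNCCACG, was in 5 of 16 chaperone-arm promoters, in 0 of 15 ATF4-arm promoters and in XBP1, against 0.136% of all tested promoters. The amino acid response motif TGATGNAA was in 4 of 15 ATF4-arm promoters and in 1 of 16 chaperone-arm promoters, that of HERPUD1, against 1.69% of all. The matches in ASNS, CHAC1 and HERPUD1 lie before the start. Those in SLC3A2 and SLC7A1 lie in the 50 bases after it and are not shown. The core TGACGT, which ATF6-type and CREB-type factors can bind, was in 5 of 36 promoters of the 40 genes, against 12% of all. A match is a run of letters, not evidence of binding. All 30 bases of the CHAC1 stretch and of the ASNS stretch below lie in exons annotated in GENCODE 29. The stretches of CANX and HSP90B1, with all 29 bases in such exons, are not shown. The stretches below are shown because they carry the ER stress element of 3 chaperone-arm genes and XBP1, or the amino acid response motif; capitals mark the fixed letters of the motif, read 5′ to 3′ on the strand of the gene, with the reverse complement where the motif lies on the other strand.
HSPA5, chr9:125241371-125241429, minus strand: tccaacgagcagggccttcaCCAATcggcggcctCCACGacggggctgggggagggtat
CALR, chr19:12938364-12938422, plus strand: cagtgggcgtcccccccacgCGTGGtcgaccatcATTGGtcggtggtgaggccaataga
CRELD2, chr22:49918534-49918592, plus strand: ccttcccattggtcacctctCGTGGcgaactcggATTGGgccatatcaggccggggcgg
XBP1, chr22:28800598-28800626, minus strand: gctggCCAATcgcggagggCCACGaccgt
CHAC1, chr15:40953251-40953280, plus strand: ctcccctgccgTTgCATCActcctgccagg
ASNS, chr7:97872458-97872487, minus strand: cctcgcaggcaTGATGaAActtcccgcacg
HERPUD1, chr16:56931946-56931993, plus strand: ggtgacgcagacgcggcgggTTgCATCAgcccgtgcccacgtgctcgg

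The 6 genes with the ER stress element averaged 2364 TPM for HSP90B1, 2224 TPM for HSPA5, 1680.2 TPM for CALR, 1146 TPM for CANX, 123 TPM for XBP1 and 17.2 TPM for CRELD2 over the 9 libraries. Their TIS sEV over Cont sEV log2 fold changes were 0.07 for HSP90B1, 0.03 for HSPA5, 0.03 for CALR, 0.005 for CANX, -0.09 for XBP1 and 0.02 for CRELD2. Those of the 5 genes with the amino acid response motif were 0.02 for ASNS, -0.05 for CHAC1, -0.04 for SLC3A2, -0.04 for SLC7A1 and -0.04 for HERPUD1.

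Further genes of the same pathways, from lists that did not enter the 40, were read in the same fit. Of 113 such genes 109 were tested, and 0 passed over all genes in any comparison. At an unadjusted p under 0.05, 8 of the 109 (7.34%) were counted in TIS sEV over Cont sEV, where 10% of all tested genes were. The counts were 10 (9.17%, against 7.97% of all tested genes) in TIS sEV over No sEV and 9 (8.26%, against 6.03%) in Cont sEV over No sEV. Of 22 further ATF4 targets tested, the glutamine transporter gene SLC38A2 had the smallest p for TIS sEV over Cont sEV. It was at 490.0, 499.9 and 489 TPM with TIS sEV, at 551, 519 and 536 TPM with Cont sEV, and at 527, 521 and 553 TPM with No sEV, so that the TIS sEV libraries lay below the other 6. Its log2 fold change was -0.12 over Cont sEV (SE 0.03, adjusted p = 0.232, limma) and -0.11 over No sEV (SE 0.03, adjusted p = 0.467, limma). SLC6A9, a glycine transporter gene, averaged 15.5 ± 0.477 TPM with TIS sEV, 17.6 ± 0.459 TPM with Cont sEV and 16.0 ± 0.415 TPM with No sEV (adjusted p = 0.282 for TIS sEV over Cont sEV, limma).

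Among 30 further ER folding and translocation genes, SSR1, a subunit of the translocon-associated complex, averaged 231 ± 2.75 TPM with TIS sEV, 251 ± 5.58 TPM with Cont sEV and 239 ± 7.51 TPM with No sEV (TIS sEV over Cont sEV log2 fold change -0.12, adjusted p = 0.229, limma). ERP29, an ER folding factor gene, averaged 287 ± 9.73 TPM with TIS sEV, 264 ± 5.29 TPM with Cont sEV and 282 ± 8.78 TPM with No sEV (0.12, adjusted p = 0.259, limma). A further list held 19 aminoacyl-tRNA synthetase genes, many of them ATF4 targets. In TIS sEV over Cont sEV the log2 fold change was above 0 for 14 of the 19 (73.7%), against 59.6% of all tested genes. In TIS sEV over No sEV it was above 0 for 16 (84.2%), against 66.7% of all tested genes. The medians in these comparisons were 0.03 and 0.02, against 0.02 and 0.03 over all genes. EPRS1 averaged 117 ± 0.639 TPM with TIS sEV, 109.6 ± 3.47 TPM with Cont sEV and 106 ± 6.52 TPM with No sEV, and YARS1 212 ± 2.94, 202 ± 3.13 and 201 ± 5.82 TPM in the same groups. Their adjusted p-values in limma were 0.537 and 0.419 over Cont sEV and 0.508 and 0.558 over No sEV.

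Of 16 further degradation genes, EDEM3, a mannosidase gene, was at 24.4, 23.1 and 19.5 TPM with TIS sEV, 24.2, 22.5 and 28.7 TPM with Cont sEV, and 18.8, 20.6 and 18.9 TPM with No sEV. The Cont sEV libraries lay above the No sEV libraries (log2 fold change 0.35, SE 0.10, adjusted p = 0.789, limma). DERL1, a channel component gene, averaged 96.9 ± 2.72 TPM with TIS sEV, 90.0015 ± 3.15 TPM with Cont sEV and 90.1 ± 3.63 TPM with No sEV. Of the 12 genes for eIF2, its exchange factor, its other kinases and the constitutive phosphatase subunit, EIF2AK1 and EIF2B1 had the smallest p-values: EIF2AK1 averaged 53.9 ± 1.69 TPM with TIS sEV, 55.8 ± 2.599 TPM with Cont sEV and 50.2 ± 3.90 TPM with No sEV, and EIF2B1 averaged 42.7 ± 1.51, 39.99 ± 1.97 and 39.8 ± 0.614 TPM. Of 10 further genes listed with the sensors, not all of which encode sensors, ATF6B and ZBTB17 had the smallest p-values. Their TIS sEV over No sEV log2 fold changes were 0.07 (adjusted p = 0.666, limma) and 0.20 (adjusted p = 0.621, limma).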

How the data were processed

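Total RNA of 9 recipient cell samples was sequenced, and the values are gene-level TPM that the authors deposited. The submitters' processing notes name FastQC 0.11.9, Trim Galore 0.6.6, Salmon 1.4.0, DESeq2 1.28.0 and GRCh38.p13; the annotation release and the strand setting are not given in the sources used here. Depth cannot be recovered from TPM, so no interval from counting can be given. From there, limma 3.58.1 (R 4.3.3, with an intensity trend) was fitted to log2(TPM + 1) of all 9 libraries over the 13879 genes that reached 1 TPM in 3 or more libraries, with Benjamini-Hochberg adjustment over all of them and a threshold of 0.05. A fold change on this scale understates that of genes with low levels. The fit was tested on simulated data. Alternatives were another pseudocount, other filters, rescalings, library weights, a replicate block and leaving out libraries.

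The 40 genes, the further pathway lists and the marker lists were chosen with earlier results of these data known. The genes named are all 40, from each further list the 2 of smallest p over the 3 comparisons and any that passed, and any marker as a check of the labels. Gene positions are from GENCODE 29 (GRCh38), which may differ from the annotation used for counting, and promoter sequences are from RefSeq.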

Additional observations from a re-analysis of the deposited data

How the results depend on the processing

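Under each of 18 alternatives, 0 of the 40 genes passed in any comparison. The number at an unadjusted p under 0.05 ran from 3 to 8 for TIS sEV over Cont sEV, 2 to 5 for TIS sEV over No sEV and 0 to 3 for Cont sEV over No sEV, and the smallest adjusted p (limma) among the 40 from 0.206 to 0.554, 0.417 to 0.737 and 0.578 to 0.998. The sign of the fold change differed from the reported one in at least 1 alternative for 12, 20 and 24 of the 40 genes in these comparisons. The count over all genes was less stable. For TIS sEV over Cont sEV it was 13, against 3 with only the 6 libraries compared and 2 to 13 when 1 library was left out: 2 without TIS sEV replicate 1 or Cont sEV replicate 2, 3 without Cont sEV replicate 3 or No sEV replicate 3, 4 without TIS sEV replicate 2, 7 without TIS sEV replicate 3 and 8 without No sEV replicate 1. For TIS sEV over No sEV it was 1, against 9 with no filter, 2 with only the 6 libraries compared and 1 to 2 with 1 library left out. For Cont sEV over No sEV it was 0, against 7 with no filter, 1 with a mean of at least 5 TPM and 0 to 1 with 1 library left out. The median log2 fold change of the ATF4 arm for TIS sEV over Cont sEV was -0.0184 with median-of-ratios rescaling, -0.0215 with quantile normalization and -0.012 to 0.00286 with 1 library left out, and for TIS sEV over No sEV -0.016, -0.00197 and 0.0064 to 0.0183. That of the chaperone arm for TIS sEV over Cont sEV was 0.00208 after median-of-ratios rescaling and 0.0172 to 0.0305 with 1 library left out. For TIS sEV over No sEV it was -0.0104 with median-of-ratios rescaling, 0.0071 with quantile normalization and 0.00922 to 0.0377 with 1 library left out, and for Cont sEV over No sEV -0.0132 to 0.0113 with 1 library left out. Median-of-ratios rescaling placed the median over all genes at 0.000542 for TIS sEV over Cont sEV and -0.000251 for TIS sEV over No sEV, against 0.0203 and 0.032 as deposited. With the replicate number as a block, 0 of the 40 genes passed and 9, 1 and 0 of all genes did; deviations of same-numbered libraries correlated at -0.0479 to 0.0791, so the numbers were not taken to pair the samples. The causes were not tested. Read depth is unknown, so how far it limits these values cannot be stated.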
